A study of Mus musculus with 4 samples.

Results

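The genes described here are 10 transcription factors of lung epithelial lineages, Nkx2-1, Foxa1, Foxa2, Gata6, Etv5, Sox2, Sox9, Hopx, Elf3 and Elf5, taken by name from a list. All 10 were among the 30142 genes with 1 gene symbol that were tested, each represented by its row with the highest mean. RNA came from the CD45-negative cells of the lung, those without the surface marker of leukocytes, of C57BL/6 mice. Of the 4 samples, 2 came from lungs that had received bleomycin (BLM), a drug that breaks DNA and scars the lung, through the trachea 10 days earlier, and 2 from lungs given phosphate-buffered saline (PBS) in the same way. The labels used here give no age, no number of mice per sample and no statement that samples were from different animals. The p-values therefore reflect the spread among these arrays alone, and that spread may be technical. Xist, the RNA of the inactive X chromosome of female cells, lay at 5.60 and 5.43 in BLM and at 15.86 and 15.61 in PBS. The groups may thus differ in the sex of the mice, which the labels used here do not give, and for every difference between BLM and PBS sex and treatment cannot be told apart.

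In the developing lung, NKX2-1 marks the epithelium as a whole, and the forkhead factors FOXA1 and FOXA2 open chromatin for it at genes of surfactant and secretory proteins. SOX9 marks the distal tips that give rise to alveoli, and SOX2 the proximal part that gives rise to airways. In the adult, ETV5 is an ETS factor that acts downstream of FGF receptors and is needed to maintain alveolar type 2 cells, the makers of surfactant, whereas HOPX is a marker of the flat alveolar type 1 cells. Such factors are rarely restricted to epithelium: SOX9 is also known from cartilage, and GATA6 from smooth muscle.

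Of the 10 factors, 6 fell in BLM (Etv5, Elf3, Foxa1, Foxa2, Gata6 and Sox2), 1 rose (Sox9) and 3 did not pass the threshold (Nkx2-1, Hopx and Elf5). The count of falls rests on every array: no fit without 1 of them kept the calls of all 6. Etv5, Elf3 and Foxa2 kept theirs each time. Foxa1, Gata6 and Sox2 all lost theirs without BLM replicate 2, and Foxa1, Sox2 or both did without each other array. The threshold was an adjusted p of 0.05 in limma, adjusted by Benjamini-Hochberg across the 30142 genes. A difference is the mean log2 level in BLM minus that in PBS, given with its standard error (SE), from 2 arrays per group. Among all genes tested, 10.1% were lower and 15.2% higher in BLM by the same rule. The median difference of the 10 factors was -0.60, beside 0.050 over all genes tested. The values of the groups did not overlap for 8 of the 10, against 63.3% of all genes. Etv5 was the only one of them to fall by at least 1 log2 unit, as 2.33% of all genes did. In such bulk samples fewer cells of a type and less RNA per cell cannot be told apart.

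**Figure D1:**
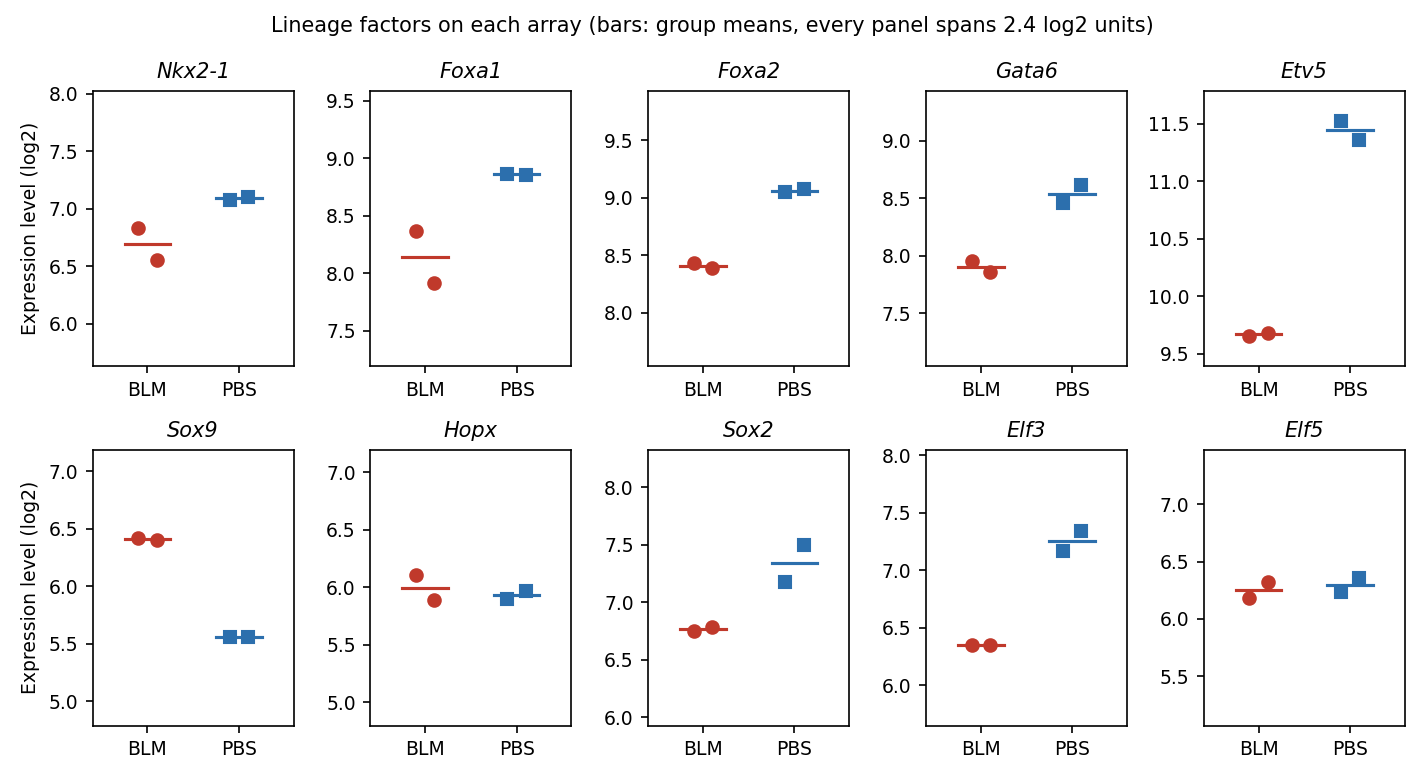
Expression level (log2, vertical axis) of the 10 factors on each array, BLM arrays as circles and PBS arrays as squares, with bars for group means. Every panel spans the same number of log2 units; Etv5 shows the widest gap between the groups, Sox9 is the only factor with both BLM arrays above both PBS arrays, and the groups overlap for Hopx and Elf5.

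Stretches of promoter are shown for 5 of the 6 factors that fell, because the levels of these genes were lower on the same arrays. Each line gives the 250 bases before an annotated transcription start, 5′ to 3′, from RefSeq on GRCm38.p6. Capitals mark a forkhead core (GTAAACA or its reverse complement TGTTTAC) or a CCAAT box (CCAAT or ATTGG).
Etv5, chr16:22439571-22439820, minus strand: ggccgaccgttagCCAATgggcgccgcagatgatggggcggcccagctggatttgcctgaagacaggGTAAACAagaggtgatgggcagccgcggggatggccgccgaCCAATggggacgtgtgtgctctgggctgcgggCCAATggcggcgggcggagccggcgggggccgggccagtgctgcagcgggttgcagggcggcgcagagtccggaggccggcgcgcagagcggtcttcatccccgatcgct
Foxa1, chr12:57546112-57546361, minus strand: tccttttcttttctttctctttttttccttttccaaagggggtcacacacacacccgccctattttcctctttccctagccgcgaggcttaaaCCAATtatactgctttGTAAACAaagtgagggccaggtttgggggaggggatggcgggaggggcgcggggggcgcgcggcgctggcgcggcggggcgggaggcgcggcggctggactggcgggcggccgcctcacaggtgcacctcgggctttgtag
Foxa2, chr2:148046970-148047219, minus strand: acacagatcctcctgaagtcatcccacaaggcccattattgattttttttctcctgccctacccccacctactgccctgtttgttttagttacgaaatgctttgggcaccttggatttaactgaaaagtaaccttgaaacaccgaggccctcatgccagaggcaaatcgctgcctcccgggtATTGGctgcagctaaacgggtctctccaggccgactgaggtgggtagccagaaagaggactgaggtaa
Elf3, chr1:135258473-135258722, minus strand: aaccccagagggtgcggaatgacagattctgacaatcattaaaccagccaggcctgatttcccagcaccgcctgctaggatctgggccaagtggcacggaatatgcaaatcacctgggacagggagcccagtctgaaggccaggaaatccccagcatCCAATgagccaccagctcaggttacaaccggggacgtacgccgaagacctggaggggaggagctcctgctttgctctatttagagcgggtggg
Sox2, chr3:34649745-34649994, plus strand: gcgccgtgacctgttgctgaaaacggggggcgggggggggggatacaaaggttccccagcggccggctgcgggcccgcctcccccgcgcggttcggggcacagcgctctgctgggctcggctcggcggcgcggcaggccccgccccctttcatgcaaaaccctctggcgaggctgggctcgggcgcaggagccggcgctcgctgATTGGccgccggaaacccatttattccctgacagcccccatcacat

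All but the Foxa1 window end at the outermost start of the RefSeq gene, and the Foxa1 window ends at a start within it. The forkhead core occurred in 2 of the 13 windows that RefSeq gives for 8 of the factors, those of Etv5, with the match beginning 183 bases before the start, and Foxa1, 141 bases before it. It is present in 3.17% of 32851 mouse promoter windows of that length. A CCAAT box occurred in 8 of the 13 windows, and in 33.8% of all windows; the Etv5 window holds 3 of them. Further motifs were searched on both strands. An ETS core (CCGGAA, 12% of all windows) was found before Sox2 and at an inner start of Foxa2, and a SOX core (ACAATG, 10.7%) before Elf5. An NKX2-1 core (CTCAAG, 13.3%) was found before Hopx and at another inner start of Foxa2, and a GATA core (AGATAA, 9.99%) at that second Foxa2 start. The NKX2-1 and GATA matches there share bases, the 1 overlapping pair among all matches. A match describes the letters of the window and is not evidence of binding.

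Of the factors that act broadly in the lung epithelium, Foxa1, Foxa2 and Gata6 fell and Nkx2-1 did not pass. Foxa2 (Entrez 15376, chromosome 2, 148042877 to 148046969 on GRCm38.p6) lay at 8.43 and 8.39 on the BLM arrays and at 9.05 and 9.07 on the PBS arrays. Both BLM arrays were low and lay close together. The difference was -0.65 (SE 0.08, adjusted p = 0.00428 by limma), which left 63.7% of the PBS level, and it kept its call without any 1 array (-0.67 to -0.63).

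Its paralog Foxa1 (Entrez 15375, chromosome 12, 57540628 to 57548029) lay at 8.37 and 7.92 in BLM and at 8.87 and 8.86 in PBS. The BLM arrays stood further apart than for any other of the 10 factors, with BLM replicate 2 the lower. The difference was -0.72 (SE 0.16, adjusted p = 0.0276 by limma), and -0.94 and -0.49 without BLM replicates 1 and 2. The call was lost without BLM replicate 2 (adjusted p = 0.0607), PBS replicate 1 (0.0913) or PBS replicate 2 (0.0871). The third member of this forkhead family, Foxa3, which is known from goblet cells, stood at 0.031 (95% interval -0.19 to 0.25), with -0.019 without PBS replicate 1. Foxa3 was above the 95th percentile of 23 background probe sets only on BLM replicate 1 and PBS replicate 2, so its value says little about the gene.

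Nkx2-1 (Entrez 21869, chromosome 12, 56531935 to 56536908) lay at 6.83 and 6.55 in BLM and at 7.08 and 7.10 in PBS. Both BLM arrays were below both PBS arrays, by 0.25 at the nearest. The difference of -0.40 (SE 0.12, 95% interval -0.69 to -0.11) did not pass the threshold (adjusted p = 0.06 by limma). It passed with cyclic loess scaling (-0.43, adjusted p = 0.0457) and when the dimmer genes were left out of the adjustment (adjusted p = 0.0271), while without each array in turn it was -0.54 to -0.26 and its adjusted p was 0.0512 to 0.233.

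Gata6, a zinc finger factor needed for alveolar epithelial maturation (Entrez 14465, chromosome 18, 11052510 to 11085636), lay at 7.95 and 7.86 in BLM and at 8.46 and 8.61 in PBS. The groups were separated by 0.51, more than the gap within either. The difference was -0.63 (SE 0.10, adjusted p = 0.00815 by limma), and the call ended without BLM replicate 2 (-0.59, adjusted p = 0.0507). Gata6 is also known from smooth muscle, whose genes moved both ways on these arrays: of 12 measured, 5 rose and 3 fell, with a median of 0.17, and 1 fell when any 1 array was left out. Among them Hhip, the hedgehog-interacting protein, rose by 1.56 (SE 0.08), and Myh11, smooth muscle myosin, stood at -1.08 (SE 0.09). Their part in the Gata6 value was not tested.

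Among the factors of the distal lung, Etv5 fell, Sox9 rose, and Hopx, which lay close to background, did not pass. Etv5 (Entrez 104156, chromosome 16, 22381313 to 22439570) lay at 9.65 and 9.69 in BLM and at 11.53 and 11.36 in PBS. The gap between the groups, 1.68, was about as wide as their mean difference, so the arrays within a group hardly differed on this scale. The difference was -1.78 (SE 0.09, adjusted p = 0.000482 by limma), 3.43-fold lower in BLM, and 0.531% of all genes tested were further below 0. Without each array in turn it was -1.86 to -1.69, past the threshold each time.

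Sox9 (Entrez 20682, chromosome 11, 112782210 to 112787757) was at 6.42 and 6.40 in BLM and at 5.56 and 5.56 in PBS. It was higher on both BLM arrays, by 0.85 (SE 0.08, adjusted p = 0.00188 by limma), and passed without any 1 array (0.84 to 0.86). The 95th percentile of 23 background probe sets lay at 5.76 and 6.13 on the BLM arrays and at 6.14 and 5.70 on the PBS arrays. Sox9 was above it on both BLM arrays and below it on both PBS arrays, so its PBS level is only a bound. With each PBS value set to that percentile, Sox9 was at least 1.40-fold higher in BLM.

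Sox9 is not restricted to epithelium, so markers of other cell types that use it are given beside it. Of 13 cartilage genes, 3 rose and none fell, while 15.2% of all genes tested rose and 10.1% fell. Hapln1, the hyaluronan link protein, rose by 0.84 (SE 0.15), Col2a1, cartilage collagen, by 0.54 (SE 0.09), and Comp by 0.33 (SE 0.08). Comp failed to pass when any 1 array was left out, Hapln1 without BLM replicate 1 (adjusted p = 0.063 by limma) and Col2a1 without BLM replicate 2 (0.0627). The median of the 13 was 0.10, and without BLM replicate 1 or 2 only 1 of the 13 rose. The summed log2 level of the 13 was 72.0 and 72.2 in BLM and 69.9 and 69.3 in PBS. Acan, the main cartilage proteoglycan, did not pass at -0.13, Comp was not above the background percentile on any array, and Hapln1 on neither PBS array. Col2a1 was below that percentile on PBS replicate 1 (5.90 against 6.14). Fibroblast genes rose in 14 of 17 cases and fell in 1 (median 1.08). Tnc rose by 6.58 (SE 0.10), Col1a1 by 4.28 (SE 0.08), Grem1 by 3.89 (SE 0.19) and Col3a1 by 3.60 (SE 0.11). The summed log2 level of the 17 was 201 and 199.9 in BLM against 167 and 169 in PBS. Schwann and glial genes fell in 4 of 8 cases (2 without BLM replicate 1, BLM replicate 2 or PBS replicate 2) and rose in 1, S100b, at 0.97 (SE 0.11). On PBS replicate 1, Grem1 and S100b were below the background percentile. The part of any of these cells in the Sox9 value was not tested.

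Hopx (Entrez 74318, chromosome 5, 77086986 to 77115123) has 2 rows of the array annotated to it, and whether both measure it is taken up below. The row with the higher mean lay at 6.10 and 5.89 in BLM and at 5.90 and 5.97 in PBS, a difference of 0.062 (SE 0.10, 95% interval -0.20 to 0.33, adjusted p = 0.721 by limma). The groups overlapped, and the sign turned without BLM replicate 1 (-0.045) and with the mean of both rows (-0.049). The other row lay at 5.85 and 5.83 in BLM and at 5.93 and 6.07 in PBS, a difference of -0.16 (SE 0.11, adjusted p = 0.399 in a limma fit of all rows).

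The numbering of the array's rows bears on which of the Hopx rows to read. Within a chromosome the row numbers run first along the plus strand and then along the minus strand, which holds for 98.8% of 17169 genes whose strand RefSeq gives. By that order the row with the higher mean is on the plus strand and the other on the minus strand, where RefSeq places Hopx. For the 7 other factors with a strand in that table, the row's number and the strand of the gene matched. Both Hopx rows lay between 5.83 and 6.10 on every array, and on BLM replicate 2 and PBS replicate 1 both were below the 95th percentile of the background probe sets. The absence of a call for Hopx therefore says little about the gene. Which of them reports the messenger RNA of Hopx was not tested.

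The other alveolar type 1 genes were mixed. Of 18 measured, Hopx included, 2 rose, 2 fell and 14 did not pass, with a median of 0.044. Ager, the receptor for advanced glycation end products, stood at 0.31 (adjusted p = 0.0734 by limma), and the genes that fell were Lmo7 at -1.24 (SE 0.08) and Gprc5a at -1.22 (SE 0.11), while Akap5 rose by 1.08 (SE 0.09).

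Among the airway and epithelial factors, Sox2 and Elf3 fell and the values of Elf5 overlapped. Sox2, the factor of proximal airway identity (Entrez 20674, chromosome 3, 34649995 to 34652461), lay at 6.75 and 6.79 in BLM and at 7.18 and 7.50 in PBS. The PBS arrays differed from each other by 0.32, nearly as much as the 0.39 that separated the groups. The difference was -0.57 (SE 0.13, adjusted p = 0.0277 by limma). The call ended without BLM replicate 1 (adjusted p = 0.113), BLM replicate 2 (0.094) or PBS replicate 2 (-0.41, adjusted p = 0.057), and when all 65956 rows of the array were tested together (adjusted p = 0.0524).

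Elf3, an ETS factor of epithelia (Entrez 13710, chromosome 1, 135253574 to 135258472), lay at 6.35 and 6.36 in BLM and at 7.17 and 7.35 in PBS. Both BLM arrays were low, and nearly equal. On BLM replicate 2 Elf3 was little above the background percentile (6.36 against 6.13), so its share of the PBS level is approximate. It fell by 0.91 on the log2 scale (SE 0.09, adjusted p = 0.00266 by limma), to 53.4% of the PBS level, and passed without any 1 array (-0.99 to -0.82). Elf5 (Entrez 13711, chromosome 2, 103412098 to 103450989), an ETS factor known from embryonic lung tips and mammary alveoli, was at 6.18 and 6.32 in BLM and at 6.23 and 6.36 in PBS. The groups overlapped, and the difference was -0.044 (95% interval -0.29 to 0.20, adjusted p = 0.788 by limma). It turned to 0.025 without BLM replicate 1 and to 0.018 without PBS replicate 2. Elf5 was above the background percentile on every array. The margin was small on BLM replicate 2 (6.32 against 6.13) and PBS replicate 1 (6.23 against 6.14), which limits what the absence of a call can say.

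**Figure D2:**
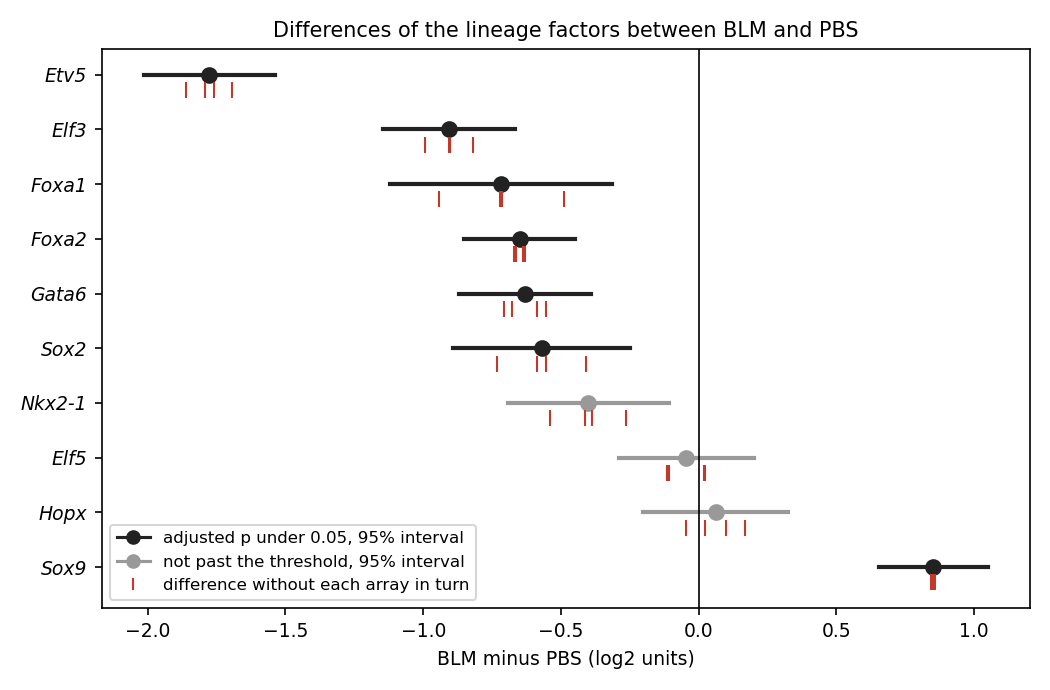
Difference between BLM and PBS (log2 units, horizontal axis) for each factor, with points for the limma estimate, bars for its 95% interval and ticks for the estimates without each array in turn. Etv5 stands apart at -1.78, Elf3 to Sox2 lie between -0.91 and -0.57, and Sox9 is at 0.85; the widest ticks are those of Foxa1, from -0.94 to -0.49.

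The ETS factors of the list therefore had unequal differences, with Elf5, and Elf3 on BLM replicate 2, close to background. Relatives outside the list moved unequally too. Ehf, an epithelial ETS factor related to Elf3 and Elf5, was at 8.40 and 8.25 in BLM and at 10.16 and 10.33 in PBS. This was a fall of 1.92 on the log2 scale (SE 0.10, adjusted p = 0.0005 by limma). Etv4, the close relative of Etv5 in FGF signalling, was at 5.42 and 5.46 in BLM and at 5.11 and 5.05 in PBS. It was not above the background percentile on any of the 4 arrays, so no fold is given, and its difference of 0.36 (SE 0.08, adjusted p = 0.0291 by limma) no longer passed when any 1 array was left out (adjusted p = 0.0682 to 0.147) and with the replicate number as a block (0.0575). Among relatives of Sox2 and Sox9, Sox4 rose by 1.18 (SE 0.12), while Sox11 fell and stood at -0.39 (SE 0.10, adjusted p = 0.0424 by limma). Sox21 and Sox10 did not pass.

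A wider list holds other transcription factors of lung development, most known from epithelium and some, such as the T-box factors, from mesenchyme. Of 36 measured, 13 fell, 7 rose and 16 did not pass, with a median of -0.032. Those that rose were Tbx5, Tbx4, Sox4, Gata5, Tbx2, Nfib and Etv4. The most marked falls were those of Tfcp2l1, at -2.16 (SE 0.11), Ehf, and Cebpa, at -1.68 (SE 0.09), a leucine zipper factor of alveolar type 2 maturation. Myb, which acts in the fate of multiciliated cells, fell by 1.63 (SE 0.08), and the zinc finger factor Klf5 by 0.54 (SE 0.09). On BLM replicate 2 Myb was barely above the background percentile (6.14 against 6.13). The grainyhead factor Grhl2, which maintains epithelial junctions, stood at -1.34 (SE 0.10). Klf5 did not pass without BLM replicate 1 (adjusted p = 0.0757) or BLM replicate 2 (0.0595). Trp63, the factor that defines basal cells, was at 0.15 (95% interval -0.07 to 0.37), did not pass and was not above the background percentile on any array. Myb, Grhl2 and Klf5 were picked after their values were seen.

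Known targets of NKX2-1 and the FOXA factors were mostly lower. Of 15 such genes, 11 fell, 1 rose and 3 did not pass, with a median of -0.84. Scgb1a1, the club cell secretory protein, fell by 1.68 (SE 0.08), the lamellar body gene Lamp3 by 1.59 (SE 0.08), the surfactant collectin Sftpd by 1.25 (SE 0.13) and the protease Napsa, which processes surfactant protein B, by 1.13 (SE 0.11). Sftpb, surfactant protein B, lay at 17.16 and 17.16 in BLM and at 18.04 and 18.02 in PBS and fell by 0.87 (SE 0.08). Sftpc, surfactant protein C, lay at 19.86 and 19.82 in BLM and at 19.56 and 19.87 in PBS, at the top of the arrays' scale. Its difference of 0.12 (95% interval -0.18 to 0.43) did not pass, and it was -0.028 without PBS replicate 1 and -0.024 with cyclic loess scaling. Pdpn, a type 1 cell membrane protein on this list, was the 1 that rose, by 0.78 (SE 0.13).

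The FGF pathway acts upstream of Etv5 in the epithelium, and its genes moved both ways. Fgfr2, whose epithelial form receives FGF7 and FGF10, lay at 9.15 and 9.10 in BLM and at 10.60 and 10.60 in PBS, a difference of -1.48 (SE 0.08, adjusted p = 0.0005 by limma). The related receptor gene Fgfr3 stood at -1.44 (SE 0.09), whereas Fgfr1 rose by 0.82 (SE 0.10) and Fgfr4 by 0.59 (SE 0.11). Fgfr4 was below the background percentile on PBS replicate 1. Fgf7, a ligand of FGFR2 made by mesenchymal cells, rose by 1.41 (SE 0.08). Dusp6, a phosphatase that ERK signalling induces and that inactivates ERK, lay at 13.13 and 13.06 in BLM and at 11.35 and 11.64 in PBS and rose by 1.59 (SE 0.12). Spry4, another feedback inhibitor, rose by 1.33 (SE 0.09), at least 1.90-fold, as neither PBS array was above the background percentile. Its relatives Spry1 and Spry2 stood at -0.50 (SE 0.08) and -0.45 (SE 0.09), and the ligand gene Fgf1 at -0.55 (SE 0.08). Fgfr4, Spry1 and Spry2 lost their calls without either BLM array, Fgf1 without BLM replicate 1 and Spry2 without PBS replicate 2. Fgfr1, Fgfr4, Spry1, Spry2 and Fgf1 were picked after their values were seen. Of 23 genes of the pathway, Etv4 included, 11 rose, 5 fell and 7 did not pass, with a median of 0.45; without BLM replicate 2, 6 rose and 3 fell, and without BLM replicate 1, 2 fell.

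Genes shared by epithelia fell more often than they rose. Epcam, the epithelial cell adhesion molecule, was at 8.85 and 8.86 in BLM and at 9.83 and 9.81 in PBS, a fall of 0.96 on the log2 scale (SE 0.08, adjusted p = 0.00135 by limma). Cdh1, E-cadherin, was at 14.74 and 14.70 in BLM and at 15.47 and 15.35 in PBS and fell by 0.69 (SE 0.09). Of 24 pan-epithelial genes, 13 fell, 4 rose and 7 did not pass, with a median of -0.35; without BLM replicate 2, 8 fell and 0 rose, and with the replicate block 1 rose. Those that rose were the keratins Krt18 (0.30) and Krt19 (0.34), the trafficking gene Rab25 (0.43) and P-cadherin, Cdh3 (0.55), named after their values were seen. These rises were weak, and Cdh3 was below the background percentile on PBS replicate 1. Krt18 and Krt19 did not pass without any 1 array, and Rab25 did not without BLM replicate 1, BLM replicate 2 or PBS replicate 1. None of these 3 passed with the replicate block, with cyclic loess scaling (Krt18 0.12, Krt19 0.15) or in the fit of all rows, and Cdh3 did not pass without BLM replicate 2. The protease Prss8 stood at -1.77 (SE 0.15), the splicing factor Esrp2 at -0.997 (SE 0.09) and the protease inhibitor Spint2 at -0.85 (SE 0.09). The summed log2 level of the 24 was 232.3 and 230.5 in BLM and 240.03 and 240.7 in PBS. Differences within the list ran from -1.77 to 0.55, and those of the 10 lineage factors from -1.78 to 0.85; differences between genes were not tested.

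The lists of single epithelial cell types give the setting. Alveolar type 2 genes, Etv5 among them, fell in 15 of 19 cases and rose in 2 (median -0.85), with Acot1 at -2.33 (SE 0.11) and complement Hc at -1.85 (SE 0.10). Club and secretory genes fell in 10 of 12 cases (median -0.89) and ciliated genes in 17 of 18 (median -1.72), with Tmem212 at -2.98 (SE 0.13) and Cdhr3 at -2.69 (SE 0.11). Of 8 basal cell genes 2 rose and 1 fell (median 0.25), and without BLM replicate 1 none of them rose. Genes of the transitional alveolar state seen in injured lungs rose in 13 of 16 cases and fell in none (median 1.07). Among them, fibronectin, Fn1, which fibroblasts also make, rose by 4.14 (SE 0.08). The cell cycle inhibitor Cdkn1a rose by 2.88 (SE 0.11) and the integrin Itgb6 by 2.17 (SE 0.10). The keratin Krt8, also on that list, did not rise (-0.19, SE 0.11, adjusted p = 0.283 by limma). The weak rises of Krt18 and Krt19 are counted among the 13. Some genes stand in more than 1 of these lists. Which cells the rises of the transitional list came from was not tested.

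**Figure D3:**
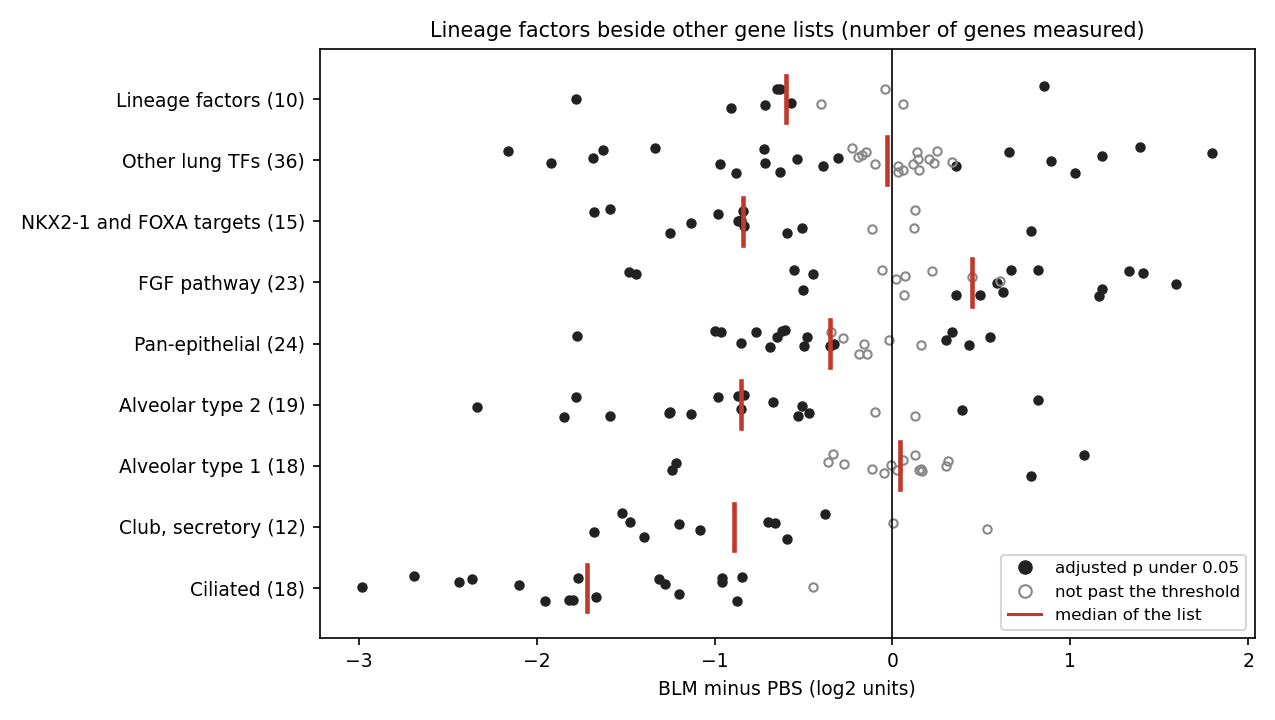
Difference between BLM and PBS (log2 units, horizontal axis) of every measured gene in the list of lineage factors and in 8 other lists, with filled points for genes past the threshold, open points for the rest and a bar at each list's median. The lineage factors have a median of -0.60, between the pan-epithelial genes at -0.35 and the targets of NKX2-1 and FOXA at -0.84.

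Around Nkx2-1, transcripts of the neighbouring DNA were lower although Nkx2-1 itself did not pass. Sfta3-ps, a noncoding gene in RefSeq whose end lies 2.52 kb from that of Nkx2-1, was at 11.83 and 11.72 in BLM and at 14.24 and 14.27 in PBS, a difference of -2.48 (SE 0.09, adjusted p = 0.000279 by limma), 5.57-fold lower in BLM. Gm26973 is a noncoding gene whose nearer end lies 0.282 kb from the opposite end of Nkx2-1. It stood at -0.64 (SE 0.17, adjusted p = 0.0442 by limma), and was below the background percentile on BLM replicate 2 (5.81 against 6.13). It did not pass without BLM replicate 1 (adjusted p = 0.0722), BLM replicate 2 (0.166) or PBS replicate 2 (0.109), with the replicate block (0.0702) and in the fit of all rows (0.0721). Further on the same side, the small nucleolar RNA Gm25760, 14.6 kb away, fell by 2.28 (SE 0.09) and the noncoding C87198, 54.2 kb away, by 1.05 (SE 0.11). Nkx2-9, a homeobox gene 74.5 kb away, was dim on all arrays and did not pass (0.31, SE 0.16). Gm25760, C87198 and Nkx2-9 all lie within the span of Gm26973, so these neighbours are not separate stretches of DNA. Beyond 100 kb on the side of Sfta3-ps, the protein-coding gene Mbip fell by 1.57 (SE 0.08). Mbip, Gm25760, C87198 and Nkx2-9 were picked after their values were seen.

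Over all 10 factors, 33 measured genes lay within 100 kb of 1 of them. Of all genes tested 10.1% fell and 15.2% rose, and of these 33 genes 7 fell and 4 rose. Of these, 4 of the 7 that fell were at Nkx2-1, where some of the neighbours overlap each other. Next to Foxa2, the noncoding 9030622O22Rik, 2.36 kb away, was at 6.36 and 6.42 in BLM and at 7.12 and 7.03 in PBS, and fell by 0.69 (SE 0.08, adjusted p = 0.00431 by limma), close to the size for Foxa2. On its other side the pseudogene Gm14108 rose by 0.81 (SE 0.10). Gata6os, which overlaps Gata6, stood at -0.30 (SE 0.12) and did not pass (adjusted p = 0.136 by limma). Next to Elf5, the catalase gene Cat, 2.92 kb away, fell by 0.93 (SE 0.09), while Elf5 itself stood at -0.044. Next to Elf3, the pseudogene Gm4204, 20.3 kb away, rose by 0.72 (SE 0.09). No measured gene within 100 kb of Foxa1, Etv5, Sox2 or Sox9 passed the threshold, and only 1 was measured there for Sox2. Beyond that distance, the nearest measured gene on the lower side of Etv5 was the splicing factor gene Tra2b at 115 kb. Tra2b stood at -0.48 (SE 0.08, adjusted p = 0.0122 by limma) and did not pass without BLM replicate 1 or 2. Cables1, the nearest measured gene on the upper side of Gata6 at 754 kb, fell by 0.89 (SE 0.11). Of the 20 nearest measured genes on either side of the factors, 6 fell and 2 rose, beside the same 10.1% and 15.2% of all genes.

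**Figure D4:**
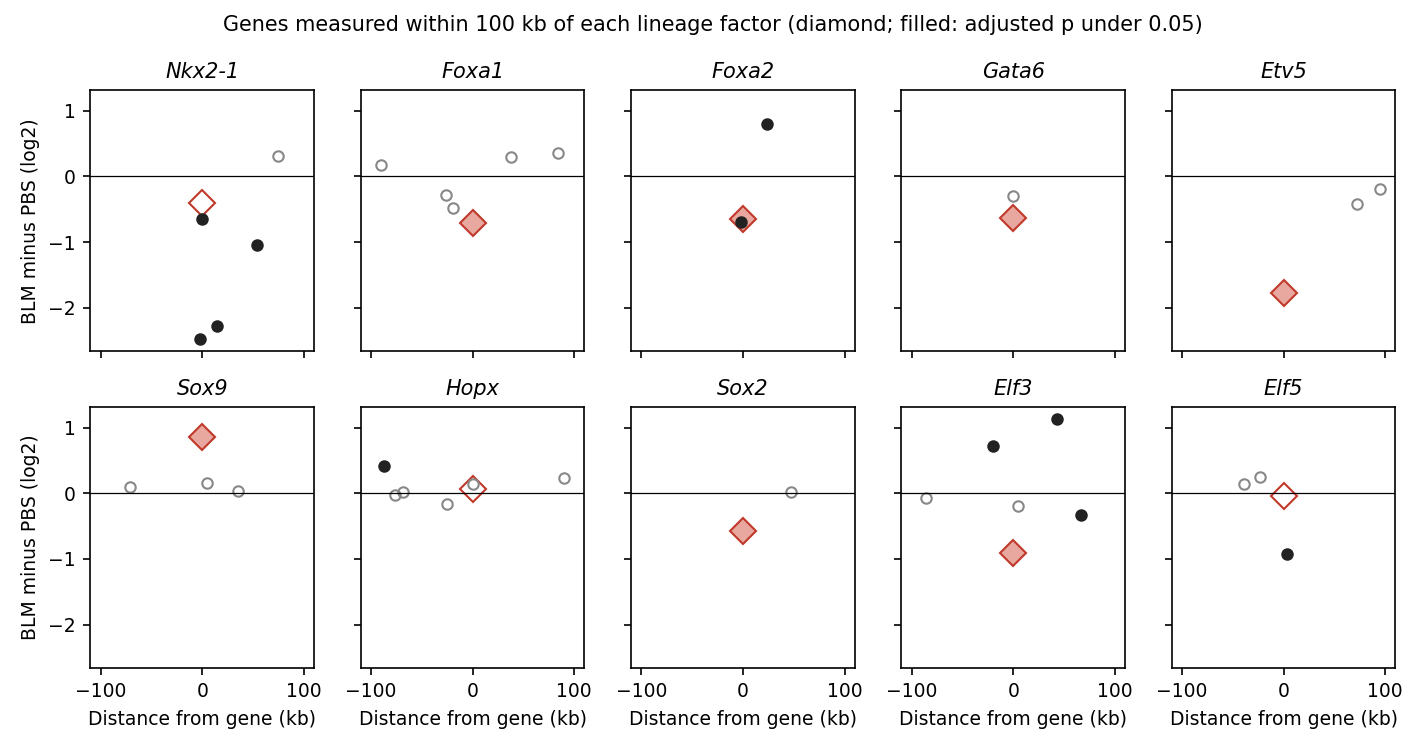
Difference between BLM and PBS (log2 units, vertical axis) of the genes measured within 100 kb of each factor, against their distance from it (kb, negative on the side of lower coordinates), with filled points for genes past the threshold and a diamond for the factor, filled where it passed. At Nkx2-1, 4 of 5 neighbours, some of them overlapping each other, fell, down to -2.48, below the open diamond of Nkx2-1 at -0.40.

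Several traits of the whole set of arrays bear on these values. In all, 7629 of 30142 genes (25.3%) passed, 60.1% of them higher in BLM, against 49.6% with cyclic loess scaling, and the total was 4003 and 4379 without BLM replicates 1 and 2. Arrays of a group differed by 0.134 (BLM) and 0.157 (PBS) log2 units on average, and arrays of different groups by 0.329 to 0.342. The leukocyte gene Ptprc, which encodes CD45, was at 7.19 and 7.20 in BLM and at 6.30 and 6.21 in PBS. Macrophage genes rose in 13 of 18 cases and fell in 2, Lyz2 (-1.14, SE 0.09) and Mertk (-0.32, SE 0.08). The summed log2 level of the 18 was 162 and 163 in BLM and 133 and 134 in PBS. The part of leukocytes and macrophages in the differences of the lineage factors was not tested.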

How the data were processed

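Total RNA from 4 samples, 2 BLM and 2 PBS by their labels, was hybridised to 1 Affymetrix array each. The deposited values are log2 expression levels; the submitters' processing notes name RMA and Affymetrix Expression Console. RMA corrects background, brings arrays to a common distribution and gives 1 value per row, and later scaling is not given in the sources used here. Some 571 to 617 rows of an array lay above 16, beyond a 16-bit scanner's range, so the scale holds a further factor that is not stated. The number of arrays limits the precision, and background was judged by the 95th percentile of the array's 23 background probe sets.

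Of 65956 transcript rows, 30604 had 1 gene symbol in the platform annotation. Symbols were updated through Entrez identifiers, and the row with the highest mean stood for a gene, which left 30142 genes. BLM and PBS were compared with limma 3.58.1 under R 4.3.3, with lmFit followed by eBayes (two-sided, 2 residual degrees of freedom), with Benjamini-Hochberg adjustment over all genes. The code was tested on simulated data. Of 349 entries in the gene lists, 327 were measured, and the others, Foxj1 among them, were not analysed here.

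The members and lists were chosen with earlier results of these data known. All 10 factors, a fixed panel, the nearest measured genes on either side and up to 4 genes per list with the largest differences past the threshold could be named. Not all of these are given, and others are said to have been picked after their values were seen. Acan, Krt8, Lyz2, Mertk, Sox10, Sox11 and Sox21 were also named outside these rules, with their values known. Alternatives were a fit without each array in turn, a block for the replicate number, testing all rows, averaging the rows of a gene, dropping dim genes (mean under the median of all genes), dropping X and Y genes, cyclic loess, centring on medians, and a robust prior with a trend. Promoters, positions and strands came from RefSeq (GRCm38.p6).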

Additional observations from a re-analysis of the deposited data

How the results depend on the processing

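The replicate numbers in the labels were not taken to pair the samples: the deviations of same-numbered arrays from their group means correlated at 0.014, a value that both pairs share by construction. With the replicate block, 6742 genes passed, and the same number of lineage factors, 6, were lower. Without each array in turn, 4003 to 5956 genes passed, 3 to 5 of the 10 lineage factors were lower (3 without BLM replicate 2: Foxa2, Etv5 and Elf3) and 1 was higher. Under the filter on dim genes, 7 were lower, Nkx2-1 joining, and 0 were higher, because Sox9 lay below the filter and was not tested. Over the other alternatives 5 to 7 were lower and 1 was higher. Signs that turned were all of genes not past the threshold: Hopx (-0.049 with the mean of its rows; -0.045 to 0.17 without each array), Elf5 (-0.11 to 0.025 without each array, 0.018 without PBS replicate 2), Foxa3 (-0.019 to 0.081 without each array) and Sftpc (-0.024 with cyclic loess scaling, -0.028 to 0.28 without each array). A fit without 1 array has fewer samples and 1 residual degree of freedom. Of 1071 values of single genes recomputed under the alternatives, 996 kept their sign and side of the threshold, 65 lost the call and 3 gained it, the rest being the 7 turned signs.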

Other observations

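Of the 36 other transcription factors, 7 rose in BLM, and 5 of them are given here. Tbx5, a T-box factor that acts in the mesenchyme of the lung bud, was at 10.96 and 10.83 in BLM and at 8.92 and 9.27 in PBS, and rose by 1.80 (SE 0.14, adjusted p = 0.00111 by limma). Its relatives Tbx4 and Tbx2 rose by 1.39 (SE 0.10) and 0.89 (SE 0.10). Gata5, related to Gata6, was at 7.59 and 7.40 in BLM and at 6.40 and 6.53 in PBS, a rise of 1.02 (SE 0.11), where Gata6 stood at -0.63. Nfib, which acts in both mesenchyme and epithelium, rose by 0.66 (SE 0.08). Each kept its call without any 1 array. Msln, the mesothelial surface protein mesothelin, rose on the same arrays, by 1.28 (SE 0.10), and 6 of 11 mesothelial genes rose (3 without BLM replicate 1 or 2). Erbb3, a neuregulin receptor on the glial list that epithelium also expresses, fell by 1.37 (SE 0.08). Tbx4, Tbx2, Gata5 and Nfib were picked after their values were seen.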
